A study of Homo sapiens with 54 samples.

Results

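The response of olaparib-resistant (OlaR) MDA-MB-468 cells to cisplatin (CDDP) was examined at the higher of its 2 doses. The comparison set the 3 libraries of OlaR cells treated with 2.5 µM CDDP against the 3 of OlaR cells without it, 6 of the 54 libraries of the series, and used every gene with enough reads to be tested, 13012 of the 27470 in the table. MDA-MB-468 is a triple-negative breast cancer line with wild-type BRCA1. OlaR cells are 1 derivative of that line, raised by stepwise exposure to olaparib, an inhibitor of PARP1 and PARP2, and kept in 15 µM olaparib, so cells with and without CDDP both carried the inhibitor. CDDP was given overnight. Beside these groups stand OlaR cells treated with 1 µM CDDP, parental cells given 3 µM olaparib overnight with or without 2.5 µM CDDP, and OlaR cells of SUM1315, a triple-negative line with mutant BRCA1, kept in 25 µM olaparib with or without 4 µM CDDP, each with 3 libraries. Libraries were QuantSeq 3′ mRNA libraries, which read the ends of polyadenylated transcripts. Nothing in the labels says that the libraries of a condition came from separate cultures, and p-values then measure only the spread between these libraries, which may be technical.

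CDDP binds purine bases and links them within a strand or between strands of DNA. Such adducts stall replication forks, and they stall RNA polymerase II when it meets them in the transcribed strand. Transcription-coupled nucleotide excision repair clears the stalled polymerase, and the Fanconi anemia pathway with homologous recombination removes links between strands. A polymerase must cross the whole of a gene, introns included, to make a transcript, and human genes differ in span by several orders of magnitude.

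The 6 libraries held 2070301 to 4676284 reads, with 4588288 to 4676284 in OlaR cells and 3598099, 4455837 and 2070301 in the 3 libraries with 2.5 µM CDDP. The third CDDP library was thus the shallowest, and counts without it are given beside the results that rest on it. Values below are read counts that the authors had adjusted to a common library size of 5585170, called adjusted reads. Pearson correlations of log2 values across genes were 0.981 to 0.984 within a condition and 0.969 to 0.972 between conditions. The filter on low values was applied over all MDA-MB-468 libraries of the series, so passing it does not show expression in these 6. All 10 epithelial markers and 9 of 10 basal markers passed the filter. In OlaR cells KRT5 had a mean of 3588 adjusted reads and EPCAM one of 3476. Only VIM, FN1 and COL1A1 of 12 mesenchymal markers and CD14 of 10 immune markers passed the filter, CD14 at 4.84. ESR1, the estrogen receptor that defines hormone-receptor positive tumours, was counted at 216 adjusted reads in OlaR cells although the line is called triple-negative.

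CDDP at 2.5 µM lowered more genes than it raised, and the lowered genes were long. With an adjusted p at or under 0.05 in limma and a fold change of at least 2, 215 genes were lower (1.65% of those tested) and 96 were higher (0.738%), together 2.39%. Such genes are called DEGs below, and "rose" and "fell" are used for an adjusted p at or under 0.05 whatever the fold. Without the limit on the fold, 967 genes rose (7.43%) and 1460 fell (11.2%). Leaving out the shallowest CDDP library gave 79 higher and 185 lower DEGs. The edgeR quasi-likelihood test on the recovered reads gave 66 higher and 172 lower DEGs, and 222 of its 238 DEGs were among the 311. Less RNA per cell and fewer cells of a kind cannot be told apart in bulk RNA, and the values are shares of each library, not amounts per cell.

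The annotated span of a gene, the distance from its start to its end on GRCh38 with introns, was known for 12810 of the genes tested. The median span was 28.6 kb for all genes tested, 353 kb for lower DEGs and 12.4 kb for higher DEGs. Of 212 lower DEGs with a span, 175 (82.5%) covered at least 100 kb and 144 (67.9%) at least 200 kb, against 17.3% and 6.39% of all genes tested. No higher DEG reached 200 kb, and PIK3CD and TEX14 were the only 2 to reach 100 kb.

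The share of lower DEGs rose with span from class to class above 100 kb. It was 0.34% of the 2941 genes under 10 kb, 0.354% of the 3672 from 10 to 30 kb and 0.351% of the 3984 from 30 to 100 kb. It was then 2.22% of the 1395 genes from 100 to 200 kb, 12.7% of the 685 from 200 to 500 kb and 42.9% of the 133 over 500 kb. The median log2 fold change followed the same order, 0.10 and 0.08 in the 2 shortest classes, -0.02 from 30 to 100 kb, -0.22 from 100 to 200 kb, -0.56 from 200 to 500 kb and -1.02 over 500 kb. These medians are descriptions with no test, and the median over all genes tested was -0.004. Among genes over 500 kb, 125 of 133 (94%) had a log2 fold change below 0, against 50.6% of all genes tested.

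**Figure D1:**
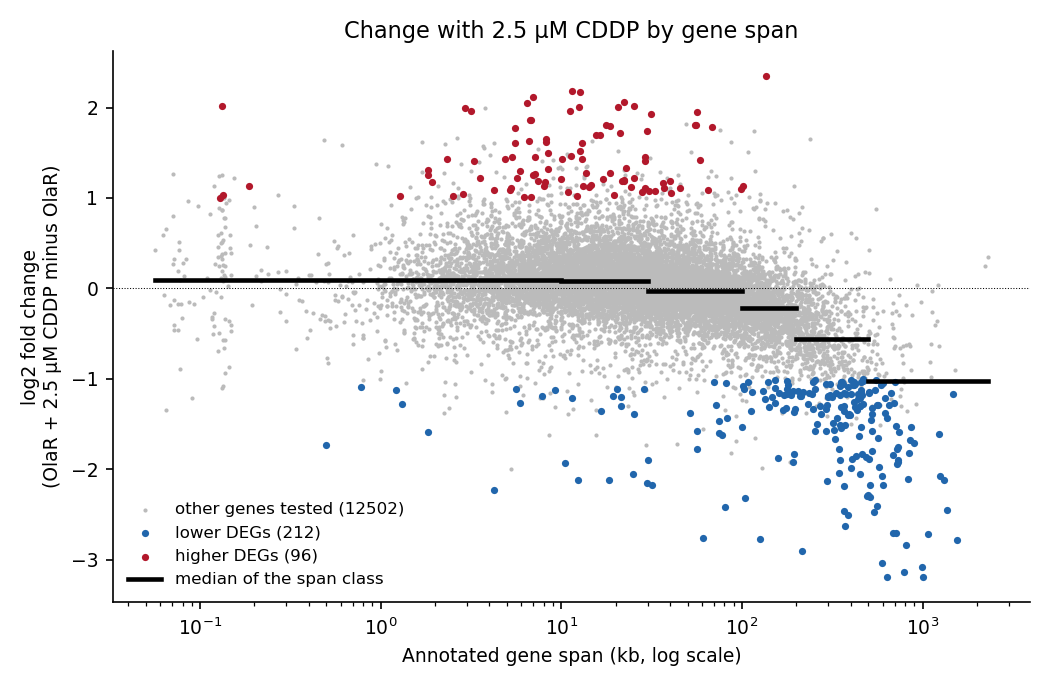
Change of each gene with 2.5 µM CDDP in OlaR cells (y axis, log2 fold change) against its annotated span (x axis, kb, log scale), with higher DEGs in red, lower DEGs in blue and the median of each span class as a black bar. The class medians fall from 0.10 under 10 kb to -1.02 over 500 kb, and no red point lies beyond 200 kb.

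The pattern was the same in each of the 3 CDDP libraries, the shallow one included. Set against the mean of the OlaR libraries, the median difference over the 133 genes above 500 kb was -0.97, -0.93 and -1 in CDDP libraries 1, 2 and 3, while each OlaR library lay at 0 to 0.03 from the mean of the other two. The second of these CDDP libraries held 4455837 reads, close to the depth of the OlaR libraries. In reads, genes of at least 200 kb took 2.92%, 2.88% and 2.9% of the annotated reads of the 3 OlaR libraries and 2.1%, 2.17% and 2.15% of those with CDDP. The widest 95% Wilson half-width of these shares was 0.02 percentage points, which covers counting error only. The groups did not overlap, and the exact two-sided permutation test gave p = 0.1, the smallest that 3 against 3 libraries allow. Genes under 10 kb moved the other way, from 36.6% ± 0.22 to 37.6% ± 0.13 (SD, n = 3) of the reads.

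Span went with the change also at equal abundance and at equal mature transcript length. In 4 classes of mean level, from the lowest, under 8 CPM on a scale of reads set to the same total in each library, to the highest, the median log2 fold change of genes from 200 to 500 kb was -0.74, -0.55, -0.46 and -0.31. That of genes under 10 kb was 0.17, 0.14, 0.10 and 0.01 in the same 4 classes. No gene of the highest class was a DEG in any span class, and 29 genes of that level spanned 200 to 500 kb and 2 over 500 kb. Mature length, the summed exons of the canonical GENCODE transcript, was known for 97.5% of the genes tested. Within transcripts under 2 kb the median was 0.08 for 1689 genes spanning under 10 kb and -0.51 for 45 genes spanning 200 to 500 kb. Within transcripts over 6 kb it was 0.13 for 46 genes under 10 kb, -0.56 for 338 genes of 200 to 500 kb and -0.95 for 81 over 500 kb. Classes of mature length taken over all spans differed less, from 0.03 under 2 kb to -0.10 over 6 kb.

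The 15 lower DEGs with the largest fall among those of at least 8 CPM whose groups did not overlap are given with BCL2, ordered by what they are known to do. SHANK2, a scaffold protein of excitatory synapses (chr11:70467854-71253234, 785 kb), had 106, 113 and 103 adjusted reads in the OlaR libraries and 17.2, 8.96 and 9.38 with CDDP. Lack of overlap was part of the choice of these 15 genes. It held for 202 of the 215 lower DEGs, against 18.6% of all genes tested in that direction. The DEGs were called from the same libraries. The log2 fold change of SHANK2 was -3.13 (SE 0.20, adjusted p = 6.41e-17), the largest fall among DEGs of at least 8 CPM whose groups did not overlap. MAGI1, a scaffold of tight junctions (chr3:65353526-66038918, 685 kb), had 97.3, 94 and 136 adjusted reads without CDDP and 36.9, 19.4 and 34.5 with it. It fell by 1.85 on the log2 scale (SE 0.20, adjusted p = 2.59e-10). LPP, a focal adhesion protein (chr3:188153021-188890671, 738 kb), fell from 176 ± 11.4 to 57.9 ± 4.95 adjusted reads (SD, n = 3), a log2 fold change of -1.59 (adjusted p = 2.39e-11).

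Among genes of vesicle traffic, EXOC4, a subunit of the exocyst (chr7:133253078-134100951, 848 kb), had 279, 296 and 297 adjusted reads in OlaR cells and 82.5, 116 and 76.7 with CDDP. Its log2 fold change was -1.68 (SE 0.14, adjusted p = 4.46e-13). SCFD2, a Sec1 family protein (493 kb), had 67.5, 82 and 83.4 without CDDP and 10.2, 17.2 and 19 with it. The log2 fold change of SCFD2 was -2.29 (SE 0.23, adjusted p = 8.39e-11). The SNARE protein STX8 (325 kb) had a log2 fold change of -1.67, TRAPPC9 of the TRAPP tethering complex (731 kb) of -1.92, and NBEA, a neuronal traffic protein (730 kb), of -1.75. These 5 genes, too, were chosen for groups without overlap, so their separation is not a result.

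Signalling genes included CAMK1D, a calcium and calmodulin dependent kinase (chr10:12349547-12835545, 486 kb), with 143, 166 and 218 adjusted reads in OlaR cells and 59.4, 47.1 and 36.6 with CDDP. It fell by 1.86 on the log2 scale (SE 0.13, adjusted p = 3.06e-16). ROR1, a receptor of WNT5A (408 kb), fell from 73 ± 9.96 to 19.1 ± 2.72, and TENM1, a teneurin of the cell surface (828 kb), from 203 ± 12.8 to 46.6 ± 6.62. Of RNA-binding proteins, MSI2 (chr17:57255851-57701581, 446 kb) had 228, 307 and 294 adjusted reads without CDDP and 76.6, 103 and 85.5 with it, a log2 fold change of -1.63 (adjusted p = 2.13e-15). RBMS3 (729 kb) fell from 133 ± 11.5 to 35.2 ± 5.2, the zinc finger factor TSHZ2 (523 kb) from 228 ± 16.9 to 65.4 ± 10.3, and the oxidase ENOX1 (574 kb) from 93.7 ± 10.5 to 23.9 ± 8.09. BCL2, which blocks mitochondrial apoptosis (chr18:63123346-63320090, 197 kb), had 37.9, 34.3 and 27.1 adjusted reads in OlaR cells and 12.4, 15.8 and 9.71 with CDDP, without overlap. Its log2 fold change was -1.33 (SE 0.32, adjusted p = 0.00147).

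**Figure D2:**
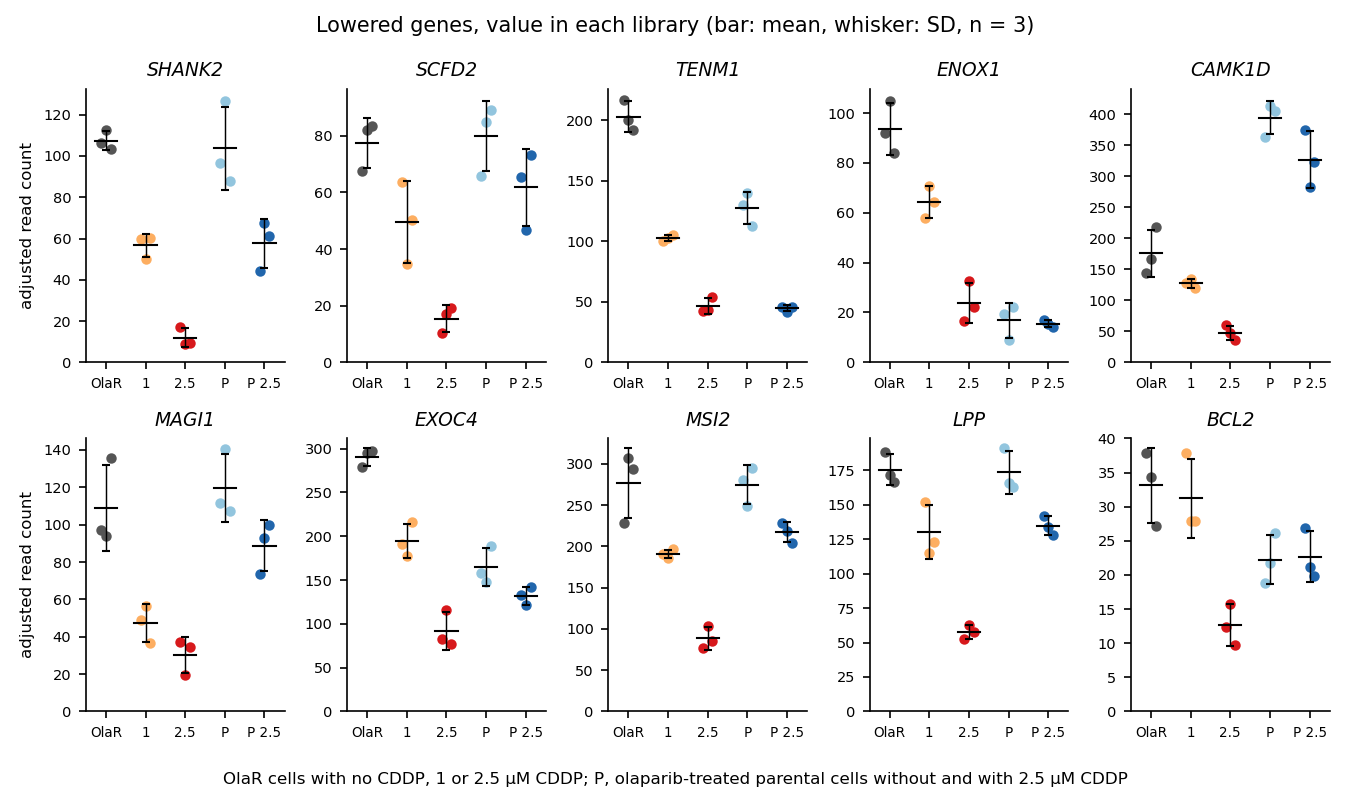
Adjusted reads (y axis, from 0) of 10 lowered genes in every library of OlaR cells without CDDP, with 1 µM and with 2.5 µM CDDP, and of olaparib-treated parental cells (P) without and with 2.5 µM CDDP, with mean and SD of 3 libraries. In OlaR cells SHANK2 goes from a mean of 107 to 56.7 at 1 µM and 11.9 at 2.5 µM.

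The longest lower DEGs rested on fewer reads. PDE4D, a cyclic AMP phosphodiesterase spanning 1553 kb, had 4, 7 and 11 reads in the OlaR libraries and 0, 1 and 0 with CDDP, a ratio of read rates of 0.0623 with a 95% counting interval of 0.00151 to 0.385. NAALADL2 (1370 kb) had 20, 15 and 22 reads against 2, 2 and 2, a ratio of 0.144 (0.0508 to 0.334). ANKS1B (1250 kb) had 9, 10 and 2 reads against 0, 1 and 1. CCSER1 (1478 kb), with 44.9 ± 3.53 adjusted reads in OlaR cells and 19.7 ± 4.9 with CDDP, and PRKG1 (1307 kb), with 31.4 ± 13.7 and 5.98 ± 0.31, complete the 5. The calls of ANKS1B and PRKG1 were each lost in 6 of 14 other fits. Of all lower DEGs, 3 had no read in the 3 CDDP libraries and 20 had 1 to 3. No tested gene of 200 kb or more lacked reads in 1 group while it had more than 3 in the other.

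A few long genes did not follow the class, and a few short ones fell. Of the 8 genes over 500 kb with a log2 fold change above 0, PCDH9, a protocadherin of 928 kb, was the most abundant. Its adjusted reads were 308, 344 and 369 in OlaR cells and 348, 331 and 365 with CDDP, and the groups overlapped. Its log2 fold change was 0.04 (SE 0.16, adjusted p = 0.916). DMD, the dystrophin gene of 2220 kb, had a log2 fold change of 0.25 (SE 0.25, adjusted p = 0.549). The 3′ libraries do not show where a transcript began, so forms shorter than the annotated span were not told apart. Lower DEGs were also found under 30 kb, 10 of them under 10 kb and 13 from 10 to 30 kb. ID1, an inhibitor of basic helix-loop-helix factors spanning 1.22 kb, had 459, 459 and 431 adjusted reads in OlaR cells and 217, 174 and 233 with CDDP (log2 fold change -1.12, adjusted p = 1.08e-08). EDN2, the peptide endothelin 2, fell from 153 ± 16.9 to 62.8 ± 1.46 (log2 fold change -1.27, adjusted p = 7.5e-09). PCDH9, DMD, ID1 and EDN2 were chosen after their values were seen.

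The raised genes were short and mostly of low abundance, since 80 of 96 had a mean under 8 CPM over the 6 libraries, as had 139 of 215 lower DEGs. OSGIN1, an NRF2 target of the oxidative stress response, had 39.7, 39.6 and 51.6 adjusted reads in OlaR cells and 132, 104 and 123 with CDDP. All CDDP libraries were above all OlaR libraries, with a log2 fold change of 1.43 (SE 0.17, adjusted p = 9.56e-09). ADM, the vasodilator peptide adrenomedullin, had 50.5, 33.5 and 30.9 against 99.8, 94.5 and 114, a log2 fold change of 1.43 (SE 0.16, adjusted p = 2.75e-09). RHEBL1, a RHEB-like GTPase of the mTOR pathway, rose from 34.8 ± 1.05 to 96.8 ± 9.13. The small MAF factor MAFF rose from 76.8 ± 5.04 to 171 ± 21.1, and SLC30A3, a zinc transporter, from 73.5 ± 14.4 to 168 ± 8.7. ULBP3, a ligand of the NKG2D receptor of natural killer cells, rose from 33.9 ± 10.4 to 76.3 ± 11.8. The developmental factors HHEX, DLX3 and FOXD1 had log2 fold changes of 1.22, 1.09 and 1.02. The intermediate filament gene SYNM, the CDK5 activator CDK5R1, the kinase SBK1, and TMEM158 and NAP1L5 had values from 1.09 to 1.25. All of these genes were chosen for groups without overlap, so their separation is not a result. Groups without overlap were found in 88 of the 96 higher DEGs and 15.6% of all genes tested in that direction. The DEGs were called from the same libraries.

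The longest higher DEGs had few reads. TEX14 (135 kb) had 0, 2 and 1 reads in the OlaR libraries and 10, 6 and 2 with CDDP, and BEAN1 (68 kb) had 3, 0 and 1 against 4, 4 and 4. MAGED1 (99.3 kb) had 2, 1 and 0 against 2, 3 and 1, a ratio of read rates of 2.74 whose 95% counting interval, 0.585 to 16.9, included 1. The calls of TEX14, BEAN1 and MAGED1 were lost in 4 of 14, 6 of 14 and 7 of 15 other fits. PIK3CD, a catalytic subunit of PI3-kinase, rose from 20.9 ± 11.7 to 42.5 ± 3.45 adjusted reads, a call lost in 5 of 15 other fits.

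CDKN1A, the p21 inhibitor of cyclin-dependent kinases, had 41.9, 46.4 and 39.1 adjusted reads in OlaR cells and 101, 98.6 and 72.4 with CDDP. It was also among the genes chosen for groups without overlap, and its log2 fold change was 1.07 (SE 0.21, adjusted p = 0.000173). GADD45A, which halts the cycle at G2/M after damage, had 250, 204 and 203 adjusted reads without CDDP and 420, 461 and 430 with it. Its log2 fold change of 0.998 (SE 0.11, adjusted p = 7.78e-10) was just under the limit on the fold, and it passed the limit in 8 of 15 other fits. DUSP6, which dephosphorylates ERK, had 29.7, 21.3 and 30.1 against 74.4, 53.7 and 51.1 (log2 fold change 1.11, adjusted p = 0.0316), a call lost in 6 of 15 other fits.

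Inflammatory and transport genes were among the low ones. NFKB2, a subunit of NF-κB, had 24.5, 14.9 and 11.4 adjusted reads in OlaR cells and 38.5, 64.4 and 42.5 with CDDP (log2 fold change 1.49, adjusted p = 0.000226). CXCL8, the neutrophil chemokine interleukin 8, had 3.86, 11.8 and 6.18 against 24, 34.2 and 29.1, and its log2 fold change of 1.96 (SE 0.72, adjusted p = 0.0498) was lost in 7 of 14 other fits. These were the 2 DEGs of 17 NF-κB targets and chemokines tested, from a list of 35, of which 5 rose and 0 fell. Over all genes tested 0.738% were higher DEGs, 7.43% rose and 11.2% fell. SLC31A2, a copper transporter related to the uptake of CDDP, rose from 26.7 ± 7.11 to 58.5 ± 6.47 and was the only DEG of 11 uptake and efflux genes. Of the 11 genes 2 rose, SLC31A2 among them, and 1 fell. The gene that fell was ABCC1, an efflux pump of 194 kb (log2 fold change -0.61, adjusted p = 0.0453).

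The 3 promoters below are those of the named higher DEGs that hold the AP-1-like pattern TGANTCA, where N is any base. FOS and JUN dimers bind its forms TGACTCA and TGAGTCA. The promoters are shown because genes of the AP-1 list rose, as given after them. Each runs from 250 bases before to 50 after the transcript start of RefSeq on GRCh38.p14, on the gene's strand, with the match in capitals. They lie at chr4:73740319-73740618 for CXCL8 (plus strand), chr16:83952990-83953289 for OSGIN1 (plus strand) and chr6:150069072-150069371 for ULBP3 (minus strand).
CXCL8: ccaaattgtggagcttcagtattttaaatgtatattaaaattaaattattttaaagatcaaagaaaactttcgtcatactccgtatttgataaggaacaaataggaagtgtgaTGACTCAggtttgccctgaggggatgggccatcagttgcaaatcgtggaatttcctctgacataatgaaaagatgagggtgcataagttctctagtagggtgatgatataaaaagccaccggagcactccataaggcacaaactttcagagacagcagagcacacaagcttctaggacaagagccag
OSGIN1: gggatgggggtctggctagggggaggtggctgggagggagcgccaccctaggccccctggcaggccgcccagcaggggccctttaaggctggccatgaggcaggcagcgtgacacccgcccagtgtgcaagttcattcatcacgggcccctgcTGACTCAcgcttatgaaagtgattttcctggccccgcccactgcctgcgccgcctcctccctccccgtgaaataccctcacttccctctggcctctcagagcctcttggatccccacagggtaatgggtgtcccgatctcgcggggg
ULBP3: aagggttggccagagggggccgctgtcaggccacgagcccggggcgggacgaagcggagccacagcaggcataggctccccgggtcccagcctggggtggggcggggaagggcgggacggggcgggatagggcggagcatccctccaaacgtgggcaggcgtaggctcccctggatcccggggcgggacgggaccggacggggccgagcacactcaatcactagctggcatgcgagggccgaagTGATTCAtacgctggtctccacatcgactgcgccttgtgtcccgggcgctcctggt
The match began 137, 97 and 6 bases before the start in CXCL8, OSGIN1 and ULBP3. It read TGACTCA in CXCL8 and OSGIN1 but TGATTCA, another form of the pattern, in ULBP3. On either strand, 7 of 70 higher DEGs with a promoter sequence (10%) held TGANTCA with any middle base. The shares were 7 of 173 for lower DEGs (4.05%) and 4.36% of 10217 genes tested. Shares of the other elements in higher DEGs, lower DEGs and all genes were 4.29%, 2.31% and 3.32% for the cyclic AMP element TGACGTCA, 1.43%, 1.16% and 2.1% for the E2F element TTTGGCGC or TTTCGCGC, 1.43%, 1.73% and 1.56% for the ATF4 and C/EBP element TGATGNAA, 22.9%, 33.5% and 37.1% for the NF-Y box CCAAT, and 4.29%, 11.6% and 9.89% for the CHR element TTTGAA. A match is a description of the letters and not a bound site, and no test was made of these shares.

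Over all genes tested 7.43% rose and 11.2% fell, and the counts of the next lists are to be read against these shares. Of 28 AP-1 and immediate early genes tested, 12 rose and 0 fell, with a median log2 fold change of 0.42, and MAFF was the 1 DEG. JUN (log2 fold change 0.70), FOS (0.67), ATF3 (0.93) and BTG2 (0.90) were among those that rose. Of 24 MAPK feedback genes 4 rose, with DUSP6 as the 1 DEG. Of 39 targets and factors of ATF4, which drives amino acid supply under stress, 6 rose and 5 fell, with a median of 0.07 and 0 DEGs. Of 24 NRF2 and metallothionein genes 6 rose and 5 fell, with OSGIN1 as the DEG. Of 26 hypoxia and glycolysis genes 5 rose and 2 fell, with ADM as the DEG, and of 25 interferon-stimulated genes 3 rose and 0 fell. Heat shock genes (0 of 19 rose, 2 fell) and cholesterol synthesis genes (1 of 24 rose, 2 fell) held no DEG.

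The cell cycle lists held no DEG, and many of their members changed by less than 2-fold. Of 54 DNA replication genes 29 rose (53.7%, against 7.43% of all genes tested) and 0 fell, with a median log2 fold change of 0.25. CDC6, which loads the replicative helicase, had 589, 578 and 547 adjusted reads in OlaR cells and 967, 1030 and 986 with CDDP (log2 fold change 0.80, adjusted p = 2.99e-12). Of 63 mitotic and G2/M genes 37 fell (58.7%, against 11.2% of all genes tested) and 0 rose, with a median of -0.24. KIF20A, a kinesin of cytokinesis, had 368, 415 and 362 adjusted reads in OlaR cells and 210, 216 and 195 with CDDP (log2 fold change -0.88, adjusted p = 1.09e-07). PLK1, a mitotic kinase, fell from 231 ± 31.5 to 159 ± 22.3. Of 26 G1/S genes 10 rose, CCNE2 (0.95) and E2F7 (0.92) the most, and RBL1 (-0.60) and CDK6 (-0.55) fell. CDK6, which drives entry to S phase, spans 232 kb. CDC6 and KIF20A were chosen after their values were seen.

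The PLK1 promoter (chr16:23678639-23678938, plus strand) is shown as an example of the CHR element of cell cycle genes, TTTGAA, in capitals. The match began 29 bases before the start.
PLK1: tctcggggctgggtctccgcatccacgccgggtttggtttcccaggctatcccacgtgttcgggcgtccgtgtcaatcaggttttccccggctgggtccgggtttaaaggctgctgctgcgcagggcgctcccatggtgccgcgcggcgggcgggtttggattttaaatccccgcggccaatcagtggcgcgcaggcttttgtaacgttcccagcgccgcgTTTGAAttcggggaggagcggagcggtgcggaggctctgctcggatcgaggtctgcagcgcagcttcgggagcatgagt
Of 54 mitotic genes with a promoter sequence, 37 (68.5%) held TTTGAA and 45 (83.3%) held CCAAT, against 9.89% and 37.1% of all genes tested. Of 46 replication genes, 12 (26.1%) held an E2F element, against 2.1%.

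No gene of the repair lists was a DEG, and 7.43% of all genes tested rose and 11.2% fell without the limit on the fold. Of 38 homologous recombination and Fanconi anemia genes 7 rose and 3 fell, with 0 DEGs and a median log2 fold change of 0.08. RAD51AP1, a recombination factor, rose from 850 ± 31.2 to 1150 ± 91.7. The 3 that fell were long. RAD51B (863 kb) fell from 127.5 ± 20.3 to 67.4 ± 5.12, FANCC (219 kb) had a log2 fold change of -0.50, and the damage kinase ATM (146 kb) of -0.34. Of 21 nucleotide excision repair genes only MNAT1 passed the test, with a log2 fold change of -0.28 (adjusted p = 0.0402) and a span of 235 kb. PARP1, the target of olaparib, had 823, 864 and 808 adjusted reads without CDDP and 882, 795 and 811 with it, overlapping groups and a log2 fold change of -0.005 (SE 0.07, adjusted p = 0.973). POLH, the polymerase that bypasses platinum adducts, had 131, 129 and 113 against 116, 125 and 106 (log2 fold change -0.10, SE 0.12, adjusted p = 0.618). Of 15 translesion genes 2 rose and 0 fell, of 28 base excision and PARP genes 7 rose and 1 fell, and of 17 genes tied to PARP inhibitor resistance 2 rose, SLFN11 and EZH2, and ABCC1 fell.

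For the other lists, too, the shares over all genes tested were 7.43% risen and 11.2% fallen. Of 26 GADD45 and checkpoint genes 5 rose, CLSPN (0.85) and CDC25A (0.78) among them, and 4 fell. Of 30 BCL2 family and death receptor genes 2 rose and 4 fell, with BCL2 as the 1 DEG. Of 34 clustered histone genes 0 rose and 7 fell, with a median log2 fold change of -0.34. The libraries read polyadenylated transcripts, so histone RNA that is not polyadenylated could be missed here and in the comparison with parental cells. HIST1H1D, a linker histone, had 160, 116 and 119 adjusted reads in OlaR cells and 61.3, 64.1 and 57 with CDDP (log2 fold change -1.09, adjusted p = 6.36e-07). The other histone DEGs, HIST2H2BF and HIST1H3G, had 21 and 6 reads in OlaR cells against 2 and 0 with CDDP, and near-identical copies of histone genes can share reads. The counting interval of the ratio reached 1.16 for HIST1H3G, whose call was lost in 11 of 14 other fits, and that of HIST2H2BF was lost in 5 of 14. Of 75 ribosomal protein genes 4 rose and 9 fell, with a median of -0.03 and 0 DEGs. Of 10 epithelial markers tested 1 rose and 3 fell, and of 9 basal markers 1 rose and 1 fell. The median log2 fold change of the basal markers was -0.02, with a highest value of 0.36. EGFR, which spans 193 kb, had the lowest of them, -0.49.

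**Figure D3:**
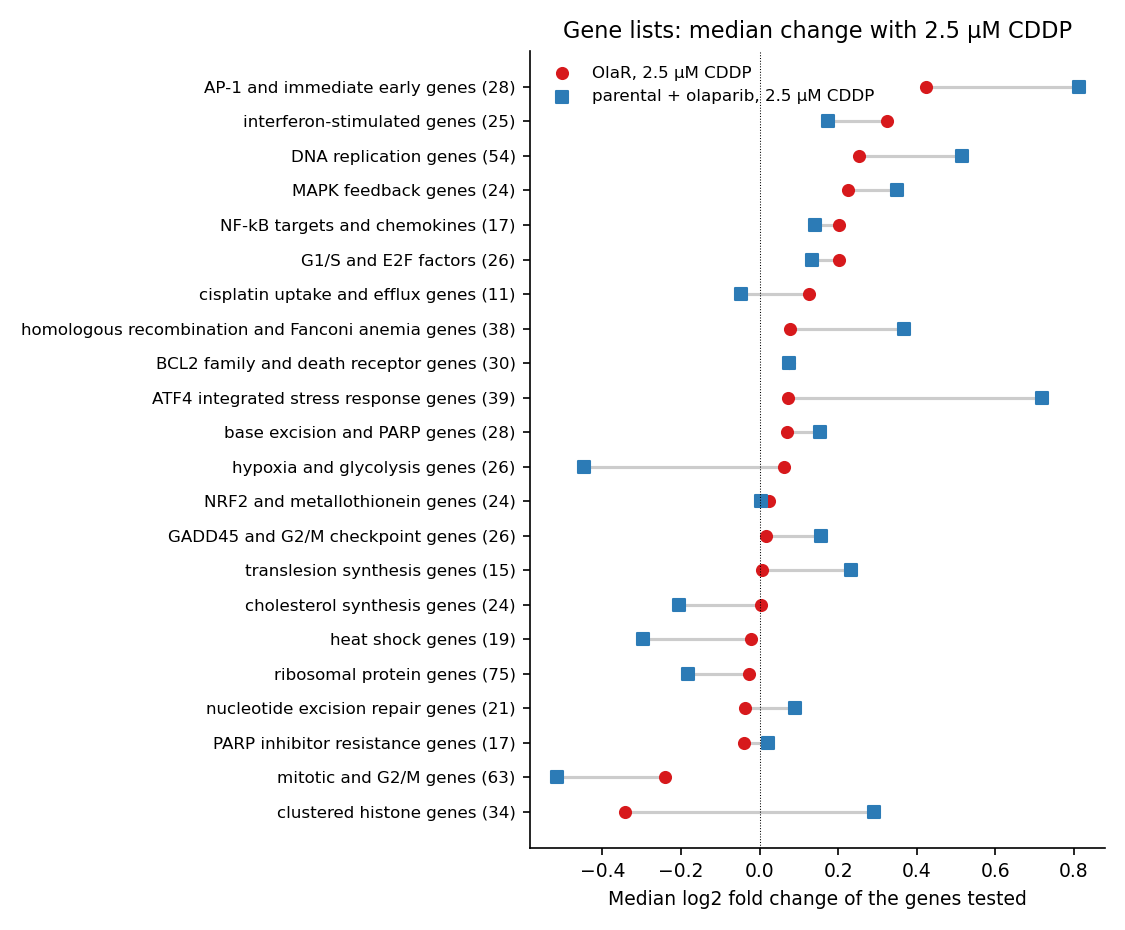
Median log2 fold change with 2.5 µM CDDP (x axis) of gene lists (y axis, with the number of genes tested) in OlaR cells (red circles) and in olaparib-treated parental cells (blue squares). In the list of ATF4 targets the medians are 0.07 in OlaR and 0.72 in parental cells, and in the mitotic list -0.24 and -0.52.

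The 1 µM libraries share the OlaR controls with the 2.5 µM comparison, so values are set side by side. With 1 µM CDDP 51 genes were DEGs (0.392%). The median log2 fold change of genes over 500 kb was -0.41 at 1 µM, with 5 lower DEGs among 133, and -1.02 at 2.5 µM, with 57. Lower DEGs were 0.169% of all genes tested at 1 µM and 1.65% at 2.5 µM. From 200 to 500 kb it was -0.19 and -0.56. MAGI1 had means of 109, 47.4 and 30.3 adjusted reads at 0, 1 and 2.5 µM, and EXOC4 290, 195 and 91.8. The direct test of 2.5 against 1 µM gave 104 DEGs (0.799%), 69 lower (0.53%) and 35 higher (0.269%). Of the lower ones 46 spanned at least 200 kb, as did 6.39% of all genes tested with a span. SHANK2 fell by 2.22 (adjusted p = 6.1e-11), SCFD2 by 1.62, ENOX1 by 1.44, CAMK1D by 1.42 and TRAPPC9 by 1.33 on the log2 scale between the doses. Of genes higher at 2.5 than at 1 µM, the 5 of at least 8 CPM with the largest log2 difference were CLN8 (1.21), NAP1L5 (1.18), ASB16-AS1 (1.07), D2HGDH (1.04) and TMEM158 (1.00). ASB16-AS1 is antisense to a coding gene, and whether strand was used in counting is not given in the sources used here. CLN8, D2HGDH and ASB16-AS1 had lower means at 1 µM than without CDDP.

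The response to the same CDDP dose was set beside that of parental cells under olaparib, to ask which changes differed with resistance. The parental comparison shares no library with that of OlaR cells, and the difference between the responses was tested as an interaction. Parental cells had 249 DEGs (1.91%), 166 higher (1.28%) and 83 lower (0.638%). The interaction was called for 276 genes (2.12%), 72 with a more positive (0.553%) and 204 with a more negative response in OlaR cells (1.57%). Of genes of at least 200 kb, 85 of 818 (10.4%) had a more negative response in OlaR cells and 1 a more positive one. The median log2 fold change of genes over 500 kb was -0.24 in parental cells, with 10 lower DEGs among 133, and -1.02 in OlaR cells. Over all 2213 genes of 100 kb and more the medians were -0.31 in OlaR and -0.03 in parental cells. For the 107 of them chosen by a called, more negative response they were -1.2 and 0.12, a gap that the choice itself widens. The olaparib dose also differed, 15 µM in OlaR and 3 µM in parental cells, and the dose and the resistant state cannot be told apart here.

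Another 92 genes with a more negative response were under 100 kb, with medians of -0.28 in OlaR and 1.08 in parental cells, again after choice by the call. CHAC1, a glutathione-degrading target of ATF4, had 70.6, 71.3 and 76.2 adjusted reads in OlaR cells and 104, 104 and 101 with CDDP (log2 fold change 0.50), and its log2 fold change in parental cells was 2.83. SLC7A11, the cystine transporter, had a log2 fold change of -0.35 in OlaR and 1.75 in parental cells, and ID4, an inhibitor of basic helix-loop-helix factors, of -0.07 and 2.30. Of the ATF4 list 9 of 39 genes and of the histone list 7 of 34 had a more negative response in OlaR cells, against 1.57% of all genes tested. ATF4 targets held 11 higher DEGs in parental cells and 0 in OlaR cells. On the other side ANGPTL4, a lipase inhibitor of the hypoxia list, rose in OlaR cells from 71.9 ± 14.3 to 105 ± 5.28. In parental cells it went from 323 ± 54.1 to 93.9 ± 12.9, a log2 fold change of -1.77. Levels before CDDP thus differed between the cells, and the interaction does not account for this. CD9, a tetraspanin, had log2 fold changes of 0.14 in OlaR and -1.25 in parental cells, and the homeobox gene DLX3 of 1.09 and -0.33. Before CDDP, CD9 had 2404 adjusted reads in OlaR and 2862 in parental cells, and DLX3 28.7 and 81.4. SNORA79 and SNORA12, small nucleolar RNAs, had log2 fold changes of 0.94 and 0.59 in OlaR cells and -1.37 and -1.15 in parental cells. Their means before CDDP were 36 and 48.8 adjusted reads in OlaR cells and 646 and 249 in parental cells. Of 98 small nucleolar and Cajal body RNAs tested, 9 had a more positive response in OlaR cells, against 0.553% of all genes tested. These RNAs are encoded within other genes, and their values are uncertain for that reason. GADD45A (0.998 and 1.33), DUSP6 (1.11 and 1.37) and MAFF (1.14 and 1.27) rose in both, with interaction p-values adjusted to 0.147, 0.814 and 0.831.

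**Figure D4:**
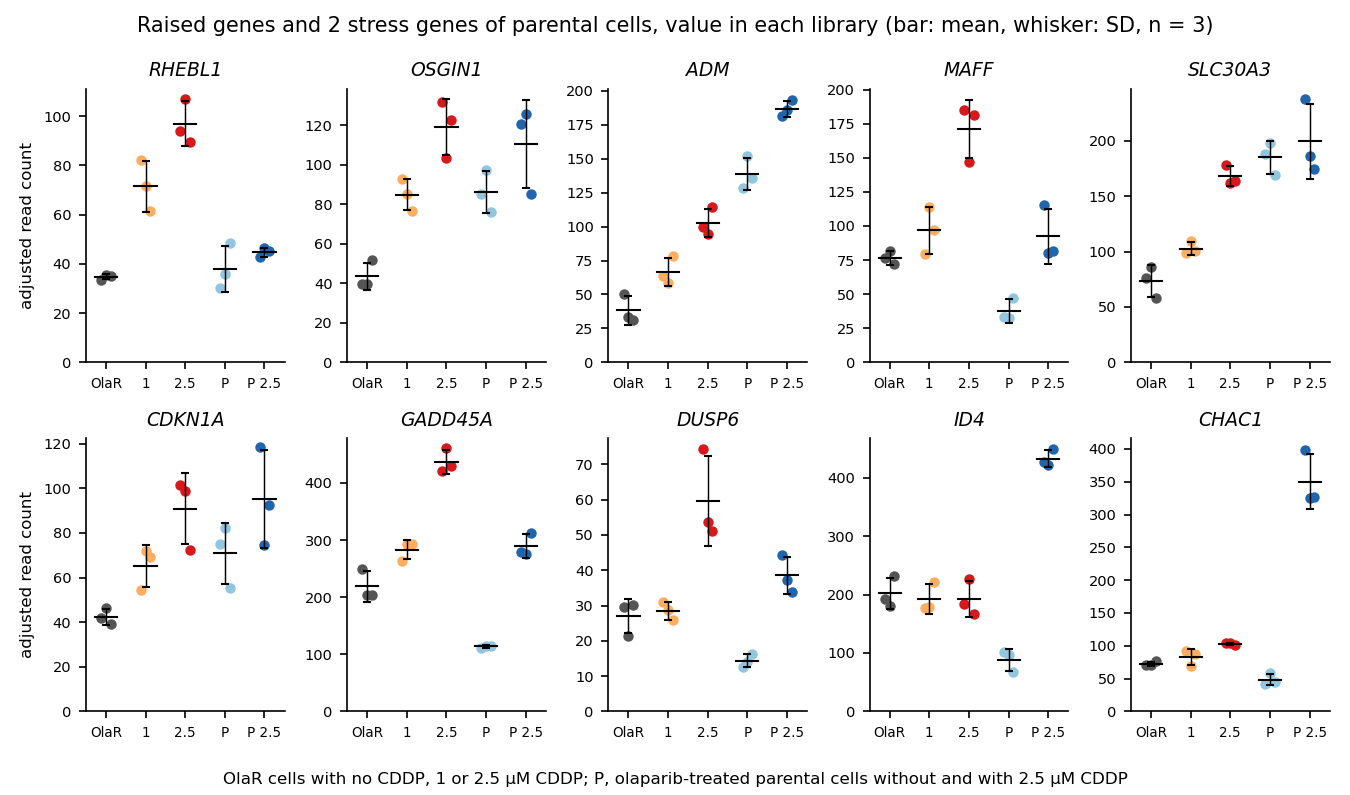
Adjusted reads (y axis, from 0) of 8 raised genes and of ID4 and CHAC1 in every library of OlaR cells without CDDP, with 1 µM and with 2.5 µM CDDP, and of olaparib-treated parental cells (P) without and with 2.5 µM CDDP, with mean and SD of 3 libraries. OSGIN1 goes from a mean of 43.6 to 85 and 119 in OlaR cells, while the means of ID4 in OlaR cells lie between 192 and 202.

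OlaR SUM1315 cells with 4 µM CDDP are shown beside these values, with another line and dose and no test between the lines. They had 502 DEGs of 13133 genes tested (3.82%), 380 lower (2.89%) and 122 higher (0.929%). By span the lower DEGs were 1.6% of genes under 10 kb, 15.6% from 200 to 500 kb and 46.3% over 500 kb, and the medians in the last 2 classes were -0.42 and -1.08. Of the 175 lower DEGs of OlaR MDA-MB-468 cells tested in SUM1315, 77 were lower DEGs there too. The median log2 fold change of all 175 in SUM1315 was -0.93. Of 66 higher DEGs tested there, 2 were higher DEGs, OSGIN1 (1.44) and DNAJC22. SCFD2 had a log2 fold change of -2.94 in SUM1315, ENOX1 of -3.36, EXOC4 of -2.78 and BCL2 of 0.20.

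**Figure D5:**
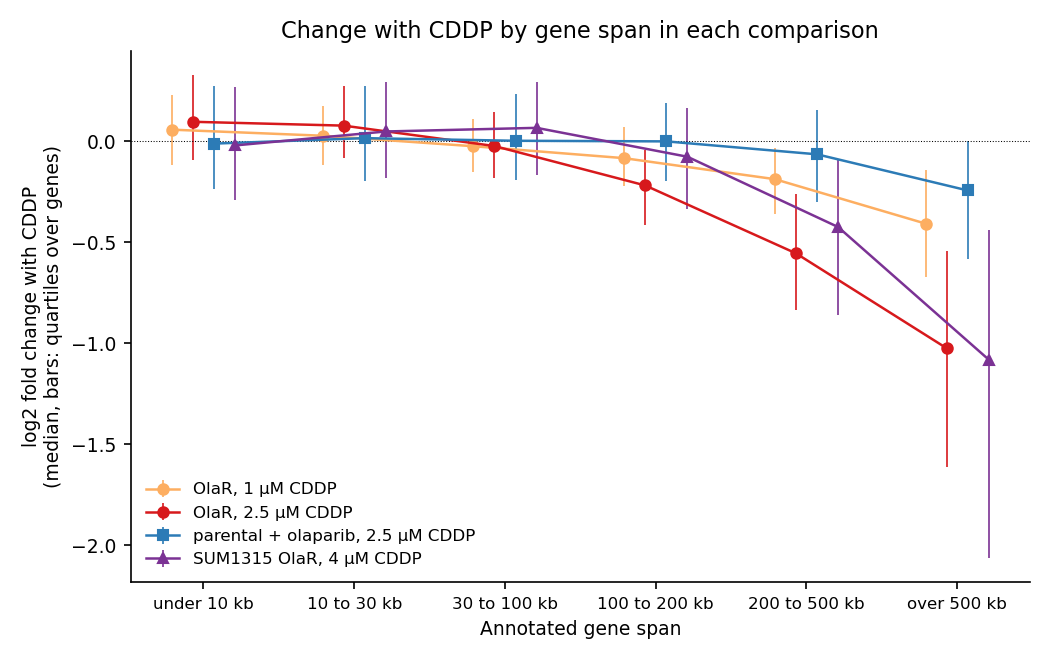
Median log2 fold change with CDDP (y axis, bars from the lower to the upper quartile over genes) in 6 classes of annotated gene span (x axis) for OlaR cells at 1 and 2.5 µM, olaparib-treated parental cells at 2.5 µM and OlaR SUM1315 cells at 4 µM. Over 500 kb the medians are -0.41, -1.02, -0.24 and -1.08 in that order.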

How the data were processed

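Per the labels and the study's methods, reads of the 3′ libraries were aligned to hg38 with STAR, counted with HTSeq and normalized with edgeR; the annotation and strand setting are not given in the sources used here. The deposited signal values are reads that the authors adjusted to a common library size; whole reads were recovered from them for 100% of 1483380 values (tolerance 1e-07). The authors' tables of fold changes and p-values against untreated parental cells were not used.

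For each gene with at least 10 adjusted reads in at least 3 libraries, limma 3.58.1 (trend) was fitted to log2(value + 1) over the 27 MDA-MB-468 libraries in 9 conditions, with Benjamini-Hochberg adjustment over 13012 genes; SUM1315 was fitted alone. Fold changes on this scale understate those of low genes. Because the values were not counts, edgeR 4.0.16 and DESeq2 1.42.0 were run on recovered reads as alternatives only. Spans came from the reference annotation. The members and gene lists were chosen with earlier results of these data known. Named genes were the 15 DEGs each way with the largest change among those of at least 8 CPM without overlap, DEGs of each list (up to 4), the 5 longest DEGs each way, the 5 largest called differences each way from parental cells and between doses, genes the study names, and markers; others are said to be chosen after their values were seen or are given as list members. Some genes that the rule names, and a list that holds one of them, are not reported here. Scripts were tested on simulated data.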

Additional observations from a re-analysis of the deposited data

Results flagged for a closer look

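The response to 2.5 µM CDDP differed between OlaR and olaparib-treated parental cells, by the interaction test, for 276 genes. Of the named genes, the log2 response in OlaR minus that in parental cells was above 0 for ANGPTL4 (2.33), SNORA79 (2.31), SNORA12 (1.74), MAGED1 (1.44), DLX3 (1.42), CD9 (1.39), RHEBL1 (1.19), SLC30A3 (1.10) and OSGIN1 (1.09). Among genes under 100 kb it was below 0 for ID4 (-2.38), CHAC1 (-2.34), SLC7A11 (-2.10) and HIST1H1D (-1.16). Among genes of 100 kb and over it was below 0 for PDE4D (-2.60), SHANK2 (-2.29), ENOX1 (-1.95), SCFD2 (-1.92), NAALADL2 (-1.73), CAMK1D (-1.59), MAGI1 (-1.42), EXOC4 (-1.36), BCL2 (-1.36), MSI2 (-1.30), ROR1 (-1.27), LPP (-1.23) and NBEA (-1.22). PDE4D, NAALADL2 and MAGED1 rested on few reads. Levels before CDDP also differed between the cells for some of these genes. MAGED1 had a mean of 1.2 adjusted reads in OlaR and 420 in parental cells, ANGPTL4 71.9 and 323, and CD9 2404 and 2862. SLC30A3 had 73.5 and 185.1, CAMK1D 175.7 and 394.5, and ID4 201.9 and 88.3. ENOX1 had 93.7 in OlaR and 16.8 in parental cells, and 15.4 in parental cells with CDDP. Its parental response thus rested on low values, where a fall could hardly show. The olaparib dose differed between OlaR and parental cells, and it cannot be told apart from resistance.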

How the results depend on the processing

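Medians by span and the log2 fold changes of the named genes that were called kept their direction under every alternative run. At 2.5 µM, lower DEGs outnumbered higher DEGs in every alternative. At 1 µM the balance did not hold. The 29 higher and 22 lower DEGs became 29 and 26 with a pseudocount of 0.5 and 29 and 21 with the replicate block. They became 9 and 12 with edgeR, 2 and 9 with DESeq2 and 2 and 5 with voom. Gene list counts, promoter shares, read shares and classes of level or mature length were not recomputed. The median over all genes tested, -0.004, was 0.003 with edgeR and TMM, 0.006 with DESeq2 and 0.005 with voom. Of the 96 higher DEGs with 2.5 µM CDDP, the count became 149 without the filter, 967 without the limit on the fold, 10 at an absolute log2 fold change of 2, 60 with DESeq2 and 45 with limma voom; the 215 lower DEGs became 1460, 41 and 129 without that limit, at 2 and with voom. The 51 DEGs at 1 µM became 31 with a pseudocount of 4, 82 without the filter, 619 without the limit, 10 at 2, 21 in a fit of only these groups, 21 with edgeR under either scaling, 11 with DESeq2 and 7 with voom. The 104 between doses became 164 without the filter, 978 without the limit, 18 at 2, 42 with edgeR and TMM, 43 with edgeR and DESeq2 size factors, 47 with DESeq2 and 24 with voom. Without the limit and at 2, the 249 in parental cells became 3010 and 28, the 276 differences 1958 and 44, and the 502 in SUM1315 2199 and 137 (259 with voom). The median log2 fold change from 30 to 100 kb was -0.016, -0.013 and -0.015 with edgeR, DESeq2 and voom, and from 100 to 200 kb -0.211, -0.207 and -0.209. For genes with a mean of at least 50 adjusted reads, the median over 500 kb was -0.833 and 58 of the 144 lower DEGs of 200 kb and over were left, as fewer genes were tested. The cause of the other changes was not tested. The alternatives for parental and SUM1315 cells, and most of those by span, were chosen after seeing the data.

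Leaving out 1 library in turn gave 79 to 113 higher and 185 to 206 lower DEGs at 2.5 µM, 36 to 52 at 1 µM, 82 to 108 between doses, 227 to 272 in parental cells, 227 to 290 differences, 427 to 474 in SUM1315 and 130 to 141 lower DEGs of 200 kb and over. Medians by span, from the shortest class to the longest, ranged over 0.086 to 0.112, 0.072 to 0.087, -0.028 to -0.019, -0.225 to -0.206, -0.579 to -0.534 and -1.087 to -1.017. Same-numbered libraries shared only a number, with correlations of their deviations from -0.006 to 0.043. With the replicate block there were 93 higher and 214 lower DEGs at 2.5 µM, 50 at 1 µM, 104 between doses, 248 in parental cells, 271 differences and 501 in SUM1315, and the median over 500 kb was -1.025. Depth limits the low genes most: 3 lower DEGs had no read with CDDP.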
